A study of Mus musculus with 6 samples.

Results

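Glycolysis and the transcriptional response to hypoxia were followed through 32 genes in epidermal basal cells of pregnant and virgin mice. They were listed by gene symbol, with earlier results of these data known. The list held 17 glycolytic enzymes, 5 genes of transport and flux control, and 10 genes of oxygen sensing and hypoxia response. Of these, 29 had a probe set of their own and 27 were detected well enough to be tested, among 10993 genes tested of 18193 genes with a probe set of their own. Gpi1 and Eno1 were not analysed here, because the annotation used assigned them no probe set. Gapdh was read only from control probe sets and from probe sets listing several genes, so it was kept out of the fit and its signals are described.

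The cells came from female C57BL/6 mice aged 10 weeks. The 3 groups were ventral skin at 16 days post-coitus (dpc), dorsal skin at 16 dpc and ventral skin of virgin mice, with 2 Affymetrix arrays each, and no allele, transgene or agent was given for any of them. Per the study's methods the cells were sorted for α6 integrin, which anchors basal keratinocytes to the basement membrane, after the skin had been held in cold trypsin overnight. The sort excludes dead cells but names no marker against other α6 integrin-positive cells. Virgin dorsal skin was not analysed here. No label says that the 2 replicates of a group were separate mice, or how many mice went into one. The methods say that experiments were repeated on other mice without saying how these arrays were drawn, so the p-values cover only how far these samples lay apart, a spread that may be technical.

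Glycolysis splits glucose into pyruvate in the cytosol, and lactate dehydrogenase turns pyruvate into lactate so that the pathway can go on without oxygen. When oxygen is short, the transcription factor subunit HIF-1α escapes the prolyl hydroxylases that mark it for degradation, and it raises transcription of many glycolytic genes, of the glucose transporter and of genes for vessel growth, pH balance and mitophagy. The epidermis has no vessels of its own and takes oxygen from the dermis and the air, and keratinocytes are known for making much lactate. HIF-1 binds a short core, ACGTG or GCGTG, in the regulatory DNA of its targets.

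The promoters of the members were searched for the ACGTG core. RefSeq sequence of 300 bases per annotated start (250 before and 50 after it, build GRCm38.p6) was held for 31 of the 32 members, all except Ndrg1. ACGTG on either strand lay in at least 1 window of 21 of the 31 members (67.7%), against 5886 of 27025 genes overall (21.8%). Counted by window it was 24 of 45 member windows (53.3%) and 6447 of 32851 windows overall (19.6%). The palindrome CACGTG, which holds the core on both strands and is also the E-box, lay in 5 of the 24 member windows. Among these, the windows of Pfkm, Ldha and Hif1a also held a separate match. Genes with several annotated starts had more than 1 window and therefore more chances of a match. The list was chosen for glycolysis and hypoxia response, so a raised share of this core was likely from the start. The shares overall cover all annotated genes, not only those tested on the arrays, and were not matched for base composition. The other core, GCGTG, lay on either strand in 19 of the 31 members (61.3%), against 35.2% of all genes. No match to ACGTG was found for Gpi1, Pfkl, Pfkp, Tpi1, Eno1, Eno2, Ldhb, Pdk1, Pfkfb4 and Car12.

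**Figure D1:**
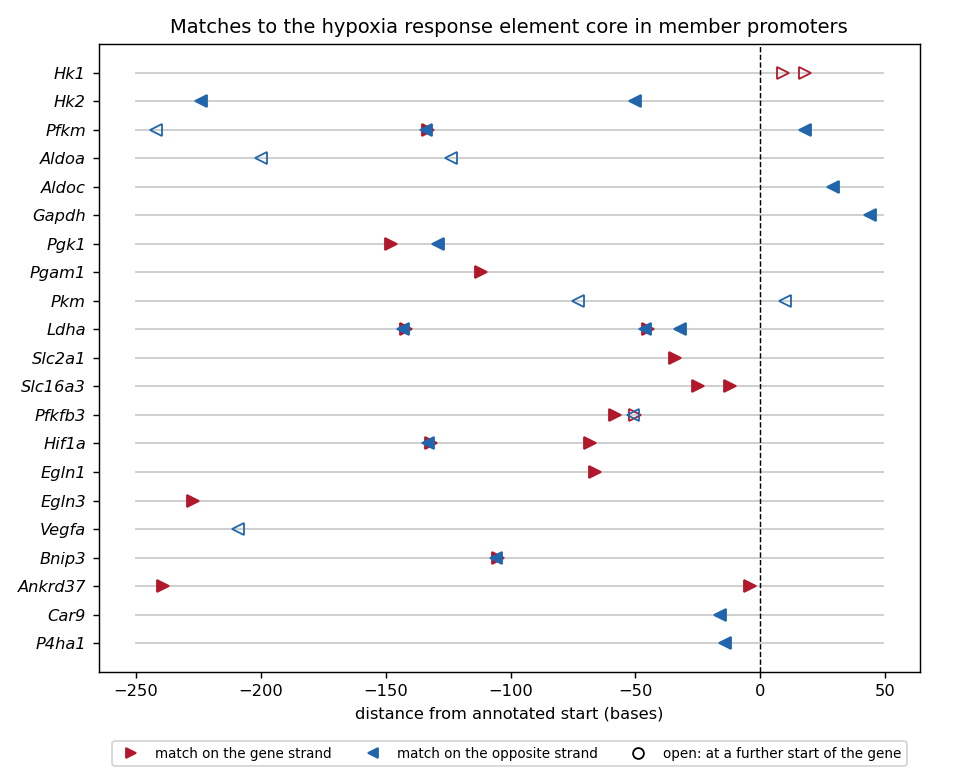
Position of each ACGTG match in the promoter windows of the 21 members that had one, as distance in bases from the annotated start; right-pointing marks are on the gene strand, left-pointing marks on the opposite strand, and open marks belong to a further start of the same gene. Matches lay on both sides of the start, and the 2 strands overlie each other where the palindrome stands.

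The stretches around the match nearest the start are shown for the 7 members that had a match at their first start and an unadjusted p under 0.05 in a comparison of 16 dpc ventral cells, so that the sequence can be read beside the values that follow. Letters are 5′ to 3′ on the gene strand, and the capitals mark ACGTG or its reverse complement CACGT. They lie at chr6:82774472-82774536 (Hk2, minus strand), chr11:78323088-78323116 (Aldoc, plus strand, just after the start), chrX:106186939-106187003 (Pgk1, plus strand), chr19:41911727-41911791 (Pgam1, plus strand), chr12:54204069-54204124 (Egln3, minus strand), chr7:138909579-138909643 (Bnip3, minus strand) and chr4:43506978-43507025 (Car9, plus strand). A match is a description of the letters and was not tested for binding.
Hk2: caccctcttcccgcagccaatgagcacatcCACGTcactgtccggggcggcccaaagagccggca
Aldoc: cccccagggagtCACGTagctctgcggca
Pgk1: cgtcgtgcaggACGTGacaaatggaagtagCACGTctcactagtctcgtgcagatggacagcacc
Pgam1: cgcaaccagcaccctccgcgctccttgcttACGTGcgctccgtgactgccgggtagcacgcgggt
Egln3: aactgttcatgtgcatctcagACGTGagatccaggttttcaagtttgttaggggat
Bnip3: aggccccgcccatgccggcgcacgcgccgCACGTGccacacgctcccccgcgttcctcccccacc
Car9: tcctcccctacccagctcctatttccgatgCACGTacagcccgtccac

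Of 45101 probe sets, 47.2% to 53.3% per array were called present. Across genes, log2 signals correlated at 0.972 to 0.977 between arrays of 1 group and at 0.951 to 0.980 between arrays of different groups. The actin 3′ to 5′ ratio, a sign of RNA quality, was 3.90 and 4.47 on replicate 2 of the 16 dpc ventral and dorsal groups and 1.78 to 2.46 on the other arrays. The Gapdh ratio was 2.86 and 2.83 on the same replicate 2 arrays and 1.61 and 1.89 on replicate 1 of these groups. On virgin ventral replicates 1 and 2 it was 2.50 and 1.53. All 10 basal keratinocyte markers listed were detected. The summed signal of 9 proliferation genes was 20673 to 29716 in 16 dpc ventral, 12665 to 18641 in 16 dpc dorsal and 11578 to 18434 in virgin ventral cells, and that of 9 dissociation stress genes was 20775 to 36507, 25506 to 37368 and 43646 to 46986 in the same 3 groups. Signals of different genes are not comparable, since each probe set has its own response.

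The members varied most within the virgin group. The second virgin array was the highest of the 6 arrays for 14 of the 27 tested members (51.9%), against 19.8% of all genes tested, and it exceeded the first virgin array in 23 of 27 members (85.2%), against 49.9% of all genes. Egln3, Car12, Pkm and Pdk1 showed this gap. The median absolute log2 difference between replicates over the members was 0.12 in 16 dpc ventral, 0.17 in 16 dpc dorsal and 0.38 in virgin ventral cells, against 0.22, 0.25 and 0.24 over all genes in the same groups. Every comparison with virgin cells therefore rests on 2 arrays that differed from each other in these genes. At the other end, the first 16 dpc dorsal array was the lowest of the 6 for 13 members (48.1%), against 12.5% of all genes.

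**Figure D2:**
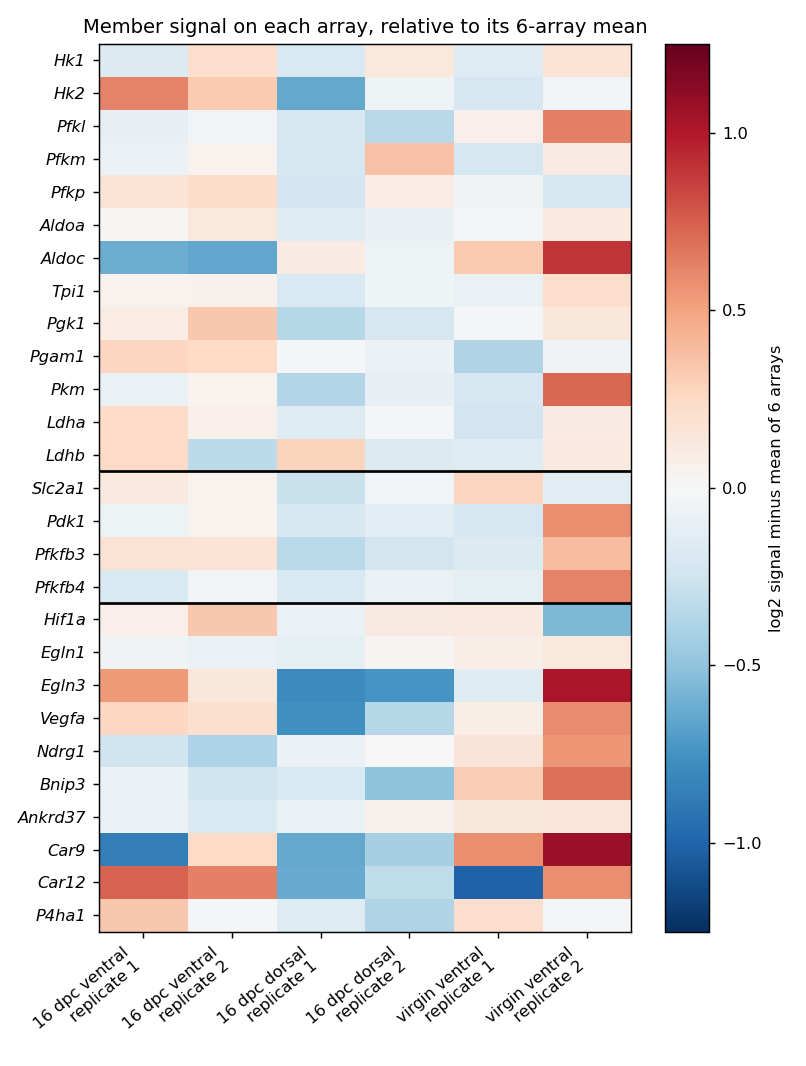
Log2 signal of each of the 27 tested members on each array minus its mean over the 6 arrays (red above, blue below); rows run from glycolytic enzymes through transport and flux regulators to oxygen sensing and hypoxia targets, divided by black lines. Virgin ventral replicate 2 is the highest array for 14 members and 16 dpc dorsal replicate 1 the lowest for 13.

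The first comparison set 16 dpc ventral against virgin ventral cells, the change of abdominal basal cells with pregnancy. None of the 27 members passed an adjusted p of 0.05 (limma, Benjamini-Hochberg over 10993 genes), where 15 genes rose (0.136%) and 7 fell (0.0637%). With no adjustment, 6 members (22.2%) had a p under 0.05, against 1280 of all genes (11.6%), and of the 6 members 2 had a higher and 4 a lower mean in 16 dpc ventral cells. The enzymes stood near 0, with 8 of 13 higher and a median log2 fold change of 0.03, and the 10 genes of oxygen sensing and hypoxia response stood lower, with 7 of 10 lower and a median of -0.14. Over all genes 5825 of 10993 had a higher mean, and the median was 0.02.

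Aldoc, the brain-type aldolase that splits fructose bisphosphate, had the smallest p of any member. Its signals were 545 and 535 in 16 dpc ventral cells, 901 and 800 in 16 dpc dorsal cells and 1054 and 1553 in virgin ventral cells. The 3 groups did not overlap, with 16 dpc ventral lowest and virgin ventral highest. Over virgin cells the log2 fold change was -1.24 ± 0.21 (SE), a 2.37-fold lower mean, at an adjusted p of 0.0854. In the fit that blocks on replicate number the adjusted p was 0.0406, and over the 16 alternatives it ran from 0.0224 to 0.431. A further Aldoc probe set, called present on 4 of the 6 arrays, gave -0.60 over virgin cells and 0.04 over dorsal cells, so the 2 probe sets differed in sign in the second comparison. The muscle and general form Aldoa, in contrast, had a log2 fold change over virgin cells of 0.03 ± 0.15.

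Among the other enzymes, Pgam1 and Hk2 had higher means in 16 dpc ventral cells. Pgam1, the phosphoglycerate mutase of most tissues, gave 5159 and 5060 in 16 dpc ventral, 4207 and 4057 in 16 dpc dorsal and 3280 and 4154 in virgin ventral cells. Both 16 dpc ventral arrays lay above the other 4, and the log2 fold change over virgin cells was 0.47 ± 0.16 (adjusted p = 0.321, limma). Hk2, the inducible hexokinase that commits glucose to the cell, gave 949 and 778 in 16 dpc ventral, 396 and 593 in 16 dpc dorsal and 536 and 603 in virgin ventral cells. Here too the 16 dpc ventral arrays stood above the other 4 (log2 fold change over virgin cells 0.60 ± 0.24, adjusted p = 0.392). The general hexokinase Hk1, by comparison, was at 0.02 ± 0.20. Of the phosphofructokinase subunits, which form the main control point of the pathway, Pfkp stood at 0.33 ± 0.16, Pfkm at 0.04 ± 0.24 and Pfkl at -0.42 ± 0.22. A further Pfkp probe set, called present on 5 arrays, gave -0.80, so the sign of Pfkp differed between probe sets.

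For 5 further enzymes the ventral groups overlapped. Pgk1, which makes the first ATP of the pathway, was at 0.15 ± 0.16 and triose phosphate isomerase, Tpi1, at -0.02 ± 0.16. Pyruvate kinase, Pkm, was at -0.27 ± 0.27 with a virgin pair of 1670 and 3179. The lactate dehydrogenase subunits stood at 0.22 ± 0.17 (Ldha) and -0.03 ± 0.23 (Ldhb). The control probe sets of Gapdh, which oxidises glyceraldehyde phosphate, gave at the 3′ end 6877 and 8334 in 16 dpc ventral, 6221 and 6630 in 16 dpc dorsal and 6629 and 10206 in virgin ventral cells. The middle probe set gave 4198 and 3740 in 16 dpc ventral, 3557 and 3023 in 16 dpc dorsal and 3271 and 6576 in virgin ventral cells. On both, the second virgin array was the highest of the 6. The neuronal enolase Eno2 was called absent on all 6 arrays, with signals of 18.7 and 42.5 in 16 dpc ventral, 19.6 and 27.1 in 16 dpc dorsal and 46.7 and 40.7 in virgin ventral cells.

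The glucose transporter Slc2a1 and the tested regulators of glycolytic flux had overlapping ventral groups. Slc2a1 (GLUT1) had signals of 9698 and 9207 in 16 dpc ventral, 7345 and 8699 in 16 dpc dorsal and 10763 and 8136 in virgin ventral cells, and its log2 fold change over virgin cells was 0.01 ± 0.18. Pdk1, a kinase that inhibits pyruvate dehydrogenase, stood at -0.19 ± 0.24. The enzymes that set fructose 2,6-bisphosphate, an activator of phosphofructokinase, stood at 0.07 ± 0.24 (Pfkfb3) and -0.37 ± 0.33 (Pfkfb4). The lactate exporter Slc16a3 (MCT4) was near the detection limit, at 62.6 and 37.0 in 16 dpc ventral, 47.7 and 24.3 in 16 dpc dorsal and 72.1 and 84.3 in virgin ventral cells. It was called present only on the second virgin array, so no fold change is given.

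Among the hypoxia targets, Ndrg1, Bnip3 and Car9 had lower means in 16 dpc ventral than in virgin ventral cells. Ndrg1, a stress-responsive differentiation gene, gave 2152 and 1956 in 16 dpc ventral, 2422 and 2537 in 16 dpc dorsal and 2844 and 3732 in virgin ventral cells. Bnip3, a receptor for mitophagy, gave 2690 and 2379 in 16 dpc ventral, 2479 and 1997 in 16 dpc dorsal and 3497 and 4561 in virgin ventral cells. In both genes the virgin arrays lay above all 4 arrays of 16 dpc cells. The log2 fold changes over virgin cells were -0.67 ± 0.17 for Ndrg1 (adjusted p = 0.229, limma) and -0.66 ± 0.19 for Bnip3 (adjusted p = 0.248).

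Car9, the membrane carbonic anhydrase that disposes of acid outside hypoxic cells, was dim, at 36.9 and 79.8 in 16 dpc ventral, 43.1 and 50.2 in 16 dpc dorsal and 100 and 142 in virgin ventral cells. It was called present on both virgin arrays and on 1 array of each 16 dpc group, and the virgin arrays were again above the other 4 (log2 fold change of 16 dpc ventral over virgin cells -1.14 ± 0.48, adjusted p = 0.410, limma). Car12, the related carbonic anhydrase of many epithelia, ran the other way. It gave 2040 and 1894 in 16 dpc ventral, 793 and 984 in 16 dpc dorsal and 609 and 1827 in virgin ventral cells. The second virgin array lay close to the 16 dpc ventral arrays and the first far below, and the log2 fold change over virgin cells was 0.90 ± 0.41 (adjusted p = 0.448). A further Car12 probe set, called present on 5 arrays, gave 1.63. Ankrd37, a direct HIF-1 target, was at -0.28 ± 0.21, and P4ha1, a collagen prolyl hydroxylase subunit, at 0.06 ± 0.20.

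Of the genes that sense oxygen, Egln1 alone had ventral groups that did not overlap. Hif1a, which encodes HIF-1α, gave 11957 and 14498 in 16 dpc ventral, 10828 and 12428 in 16 dpc dorsal and 12487 and 7772 in virgin ventral cells, a log2 fold change over virgin cells of 0.42 ± 0.23. HIF-1α is controlled mainly as a protein, which the arrays do not measure. It was the only tested member with its lowest signal on the second virgin array, and 2 further detected probe sets gave 0.66 and -0.61. Egln1, the main HIF prolyl hydroxylase, was at -0.18 ± 0.14 and Egln3, a hydroxylase that is itself induced by hypoxia, at -0.10 ± 0.33. Further probe sets, called present on all 6 arrays, gave -0.0067 for Egln1 and -0.78 for Egln3. Vegfa, the main growth factor of vessels, was at -0.11 ± 0.28.

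**Figure D3:**
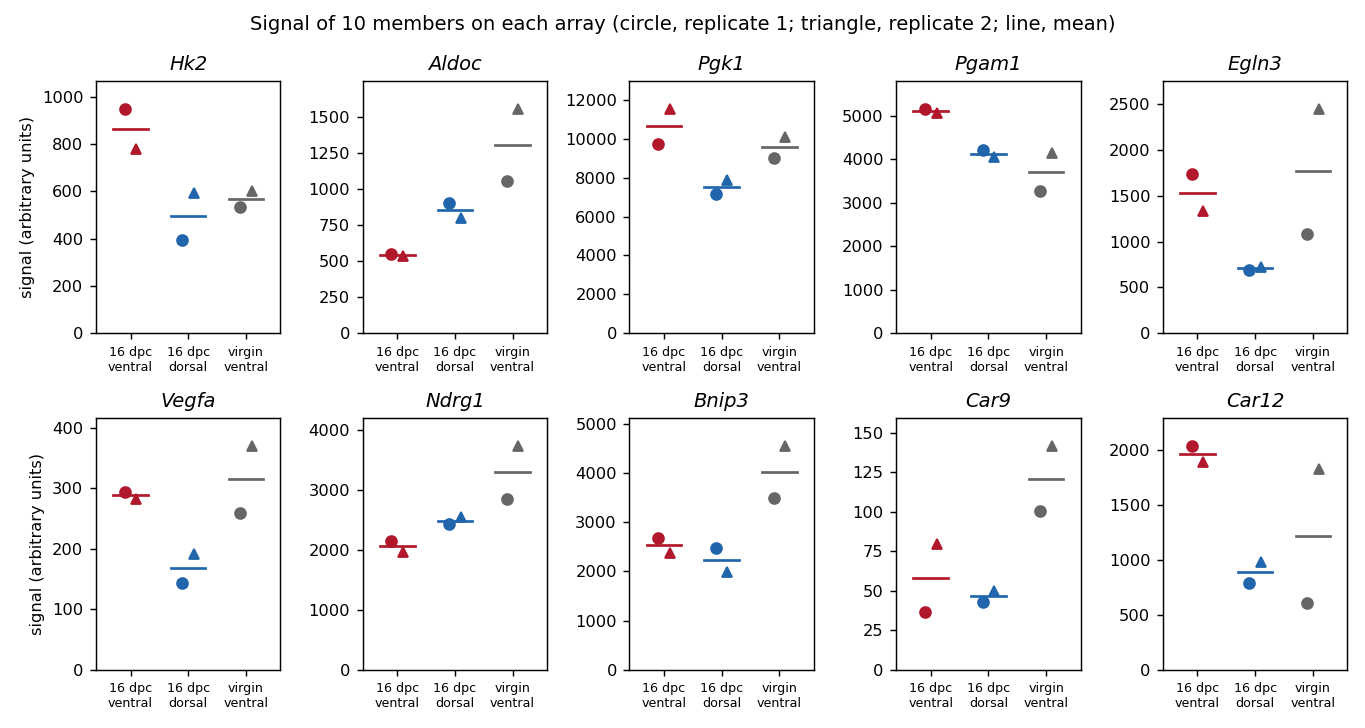
Signal in arbitrary units (linear, from 0) of 10 members on each array, with circles for replicate 1, triangles for replicate 2 and lines at the group mean; each panel has its own scale. Ndrg1, Bnip3 and Car9 are highest on the virgin arrays, Hk2 and Pgam1 on the 16 dpc ventral arrays, and Egln3 and Car12 show virgin replicates far apart.

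By groups that did not overlap, 4 members lay higher in 16 dpc ventral than in virgin ventral cells (14.8%, against 23.8% of all genes) and 7 lay lower (25.9%, against 19.8%). The higher ones were Hk2, Pfkp, Pgam1 and Car12. The lower ones were Pfkl, Aldoc, Egln1, Ndrg1, Bnip3, Ankrd37 and Car9, so that 5 of the 10 genes of oxygen sensing and hypoxia response (50%) were among them and none of the 4 transport and flux regulators. Aldoc and Car9 were over 2-fold lower with all arrays, as were 236 of the 10993 genes tested. Over 2-fold higher were 0 members, against 192 of all genes. Neither Aldoc nor Car9 kept this with 1 array left out, when Aldoc stood at -0.96 (without virgin ventral replicate 2) and Car9 at -0.58 (without 16 dpc ventral replicate 1). Within replicate 1 and replicate 2 the median log2 difference of those 10 genes was -0.10 and -0.37, and that of the 13 enzymes 0.13 and -0.04. Without the second virgin array the medians were 0.19 for enzymes and -0.11 for oxygen sensing and hypoxia response, and without the first they were -0.12 and -0.32, so the sign for the enzymes turned with the virgin array used. In bulk samples, fewer cells of a type and less RNA per cell cannot be told apart.

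Markers of other cells and states differed between the same groups. Of 14 marker lists, the summed signal did not overlap between 16 dpc ventral and virgin ventral cells in 7. It was higher in 16 dpc ventral cells for epidermal T cells (3605 to 4607 against 734 to 782), Langerhans cells (9239 to 12413 against 7558 to 8208), fibroblasts (937 to 1270 against 729 to 832) and proliferation. It was lower for dissociation stress, for spinous and granular keratinocytes (112361 to 122945 against 136918 to 137825) and for melanocytes (281 to 293 against 323 to 359). Of the T cell list 3 of 3 tested genes were higher (median 0.75 on the log2 scale) and 1 passed the threshold, and of the Langerhans list 7 of 8 were higher (median 0.84) and 1 passed. The fibroblast list differed in sign between its sum and its genes, of which 1 of 3 was higher (median -0.64). All 9 dissociation stress genes had a lower mean (median -0.85), 8 of 9 spinous and granular genes had a lower mean (median -0.37) and all 9 proliferation genes had a higher mean (median 0.87), with 0 calls in these 3 lists. With no adjustment, a p under 0.05 was reached by 5, 3 and 6 genes of these lists, in that order, against 11.6% of all genes. Cd3e, Cd3d and Il2rb of the T cell list, Col1a2, Lum and Pdgfra of the fibroblast list and Tyrp1, Pmel, Mlana and Sox10 of the melanocyte list were called absent on all arrays. The part of these cells and states in the members' values was not tested.

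The second comparison set 16 dpc ventral against 16 dpc dorsal cells, which asks what differs between abdominal and back skin at the same stage of pregnancy. Again 0 of 27 members passed, where 5 of all genes rose (0.0455%) and 4 fell (0.0364%), and 6 members (22.2%) had an unadjusted p under 0.05, against 559 of all genes (5.09%). The members nonetheless leaned one way. In 21 of 27 the mean was higher in 16 dpc ventral cells, as in 4756 of all 10993 genes. The median log2 fold change was 0.21, against -0.03 over all genes. Both ventral arrays lay above both dorsal arrays for 16 members (59.3%), against 13.1% of all genes, and below them for 2 members (7.41%), Aldoc and Ndrg1, against 19.7%. The median was 0.17 within replicate 1 and 0.18 within replicate 2.

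The lean was present in every class. Of the enzymes 10 of 13 had a higher mean (median 0.21), with 9 higher and 1 lower without overlap. Of the transport and flux regulators 4 of 4 had a higher mean (median 0.20), with 3 higher and 0 lower without overlap. Of oxygen sensing and hypoxia response 7 of 10 had a higher mean (median 0.20), with 4 higher and 1 lower without overlap. Over all genes 13.1% lay higher and 19.7% lower without overlap.

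Of the 14 marker lists, 6 had summed signals that did not overlap between 16 dpc ventral and 16 dpc dorsal cells. The signal was higher in 16 dpc ventral cells for epidermal T cells (3605 to 4607 against 1870 to 2915), fibroblasts (936.7 to 1270 against 881 to 936.5), endothelium and pericytes (1050 to 1225 against 641 to 864), mammary epithelium (1010 to 7395 against 383 to 605) and proliferation, and lower for neutrophils and macrophages (594 to 852 against 1189 to 1606). The T cell list differed in sign between its sum and its tested genes, of which 1 of 3 was higher (median -0.29 on the log2 scale). All 9 proliferation genes were higher (median 0.99, 0 past the threshold), 8 of them at an unadjusted p under 0.05, against 5.09% of all genes. For mammary epithelium 3 of 4 tested genes were higher (median 2.33, 2 at an unadjusted p under 0.05). For endothelium and pericytes it was 3 of 3 (median 0.84, 2 at such a p). Of fibroblast genes 2 of 3 were higher (median 0.28), and of neutrophil and macrophage genes 2 of 5 (median -0.24). Hair follicle markers overlapped in sum (893 to 1900 against 596 to 1060), with 4 of 5 tested genes higher. Krt75 and Shh of that list, Pecam1, Cdh5, Kdr and Tek, which define endothelium, and the neutrophil marker S100a9 were called absent on all arrays. The part of these cells in the lean of the members was not tested.

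**Figure D4:**
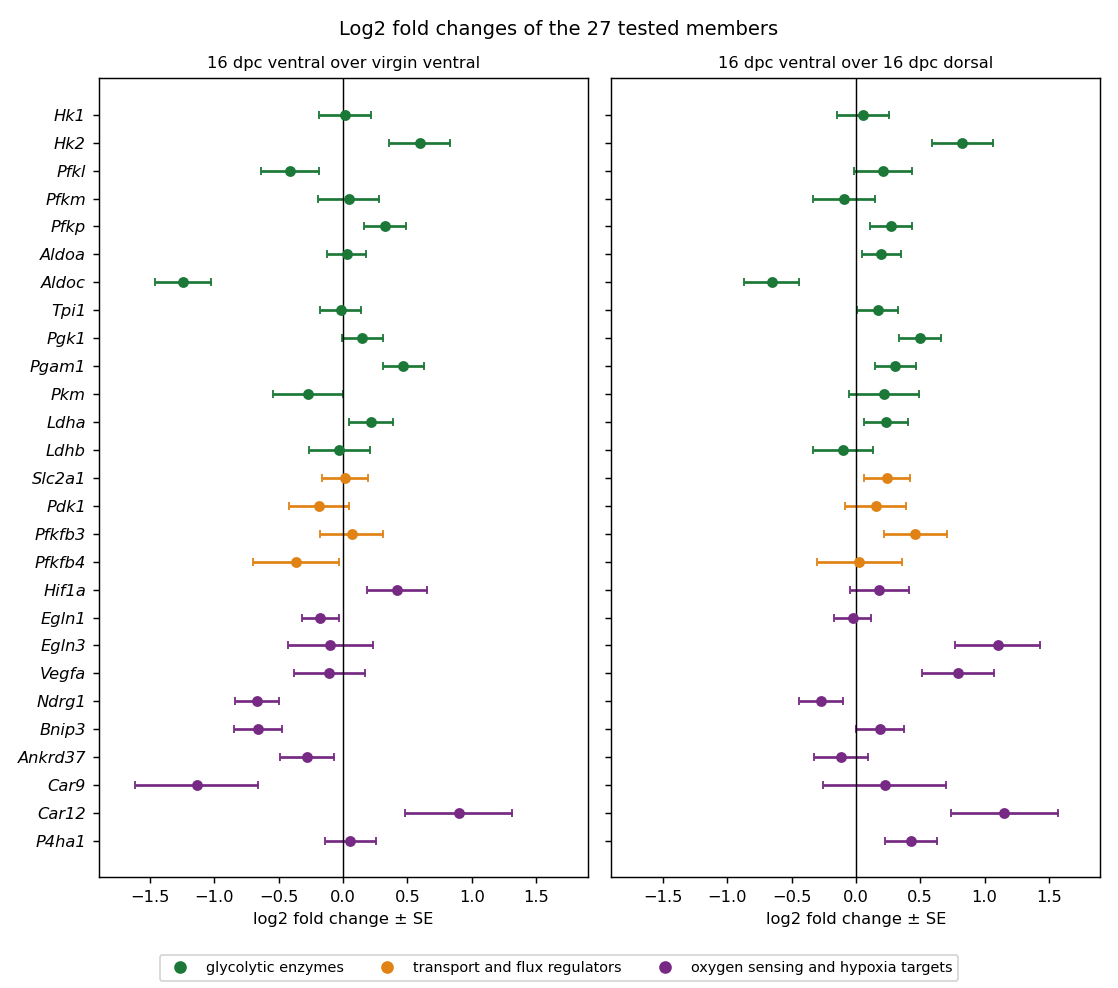
Log2 fold change ± SE of the 27 tested members for 16 dpc ventral over virgin ventral cells (left) and 16 dpc ventral over 16 dpc dorsal cells (right), coloured by class. In the left panel 13 lie above 0 and 14 below; in the right panel 21 lie above 0 and 6 below.

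Hk2 led this comparison by p. The log2 fold change over dorsal cells was 0.83 ± 0.24 (adjusted p = 0.601, limma), from signals given above, in which the first dorsal array was the lowest of the 6. Pgk1 gave 9753 and 11552 in 16 dpc ventral, 7159 and 7884 in 16 dpc dorsal and 9045 and 10108 in virgin ventral cells, with the dorsal arrays below the other 4 (0.50 ± 0.16 over dorsal cells, adjusted p = 0.751). Pgk1 was read from a probe set that may cross-hybridise, as were Aldoa, Tpi1 and Ndrg1. The other detected Pgk1 probe sets gave 0.35 and -0.26 over dorsal cells. Pgam1 stood at 0.31 ± 0.16, Pfkp at 0.27 ± 0.16, Ldha at 0.24 ± 0.17, Pfkl at 0.21 ± 0.22, Aldoa at 0.20 ± 0.15 and Tpi1 at 0.17 ± 0.16, all without overlap. Further probe sets of Pfkl gave -0.21 and 0.45, and that of Pfkp 0.05. Pkm and Hk1 stood at 0.22 ± 0.27 and 0.05 ± 0.20 over dorsal cells, Pkm without overlap and Hk1 with. Aldoc was lower, at -0.65 ± 0.21 (adjusted p = 0.766), as were Ldhb at -0.10 ± 0.23 and Pfkm at -0.09 ± 0.24, whose groups overlapped.

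Of the regulators, Pfkfb3 stood at 0.46 ± 0.24 over dorsal cells (-0.36 when averaged with a further probe set that was called absent on all arrays), Slc2a1 at 0.24 ± 0.18, Pdk1 at 0.15 ± 0.24 and Pfkfb4 at 0.03 ± 0.33.

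With all arrays, Egln3 and Car12 were the only members over 2-fold higher in 16 dpc ventral than in dorsal cells, as were 176 of the 10993 genes tested. Over 2-fold lower were 0 members, against 97 of all genes. With 1 array left out the log2 fold changes of Egln3 and Car12 were as low as 0.91 and 0.998. Egln3 gave 1740 and 1329 in 16 dpc ventral, 692 and 725 in 16 dpc dorsal and 1084 and 2448 in virgin ventral cells, and the dorsal pair was below all other arrays (log2 fold change of 16 dpc ventral over dorsal cells 1.10 ± 0.33, adjusted p = 0.652, limma). A further Egln3 probe set gave 0.44. For Car12 the log2 fold change over dorsal cells was 1.15 ± 0.41 (adjusted p = 0.809), and a further probe set called present on 5 arrays gave 2.09. Vegfa gave 294 and 282 in 16 dpc ventral, 144 and 192 in 16 dpc dorsal and 260 and 370 in virgin ventral cells. It was called present on 1 of the 2 dorsal arrays and on all others (0.79 ± 0.28, adjusted p = 0.809). P4ha1 stood at 0.43 ± 0.20 over dorsal cells, while Bnip3 was at 0.19 ± 0.19, Ankrd37 at -0.12 ± 0.21 and Ndrg1 at -0.27 ± 0.17.

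**Figure D5:**
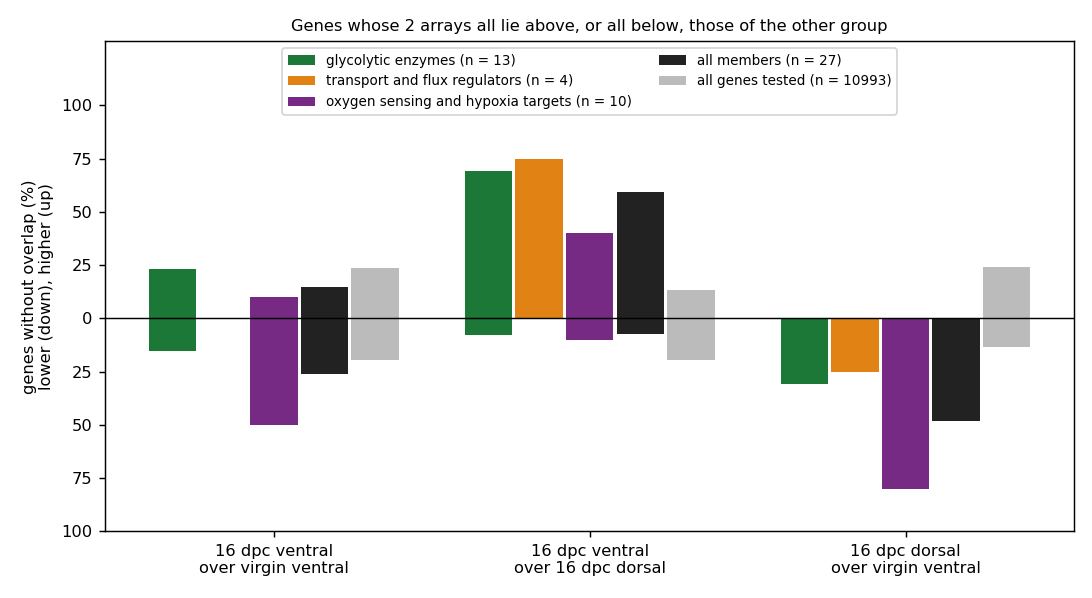
Share of genes (%) whose 2 arrays all lay above (bars up) or all below (bars down) those of the other group, by class and for all genes tested, in the 3 comparisons. For 16 dpc ventral over 16 dpc dorsal cells 59.3% of members lay above, against 13.1% of all genes; for 16 dpc dorsal over virgin ventral cells 48.1% of members lay below, against 13.6%.

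For context, 16 dpc dorsal cells were set against virgin ventral cells, which differ in both site and pregnancy. This comparison shares its arrays with the other comparisons and is no separate evidence. No gene passed (0% in either direction), and 7 members (25.9%) had an unadjusted p under 0.05, against 799 of all genes (7.27%). The mean was lower in dorsal cells for 22 of 27 members and for 4376 of all 10993 genes. The median log2 fold change was -0.26, against 0.07 over all genes. In 13 members (48.1%) both dorsal arrays lay below both virgin arrays, against 13.6% of all genes, and in 0 members above, against 24.3%. Of the 10 genes of oxygen sensing and hypoxia response 8 were among the 13, and their median was -0.38. The lowest p belonged to Bnip3 (-0.84 ± 0.19, adjusted p = 0.318, limma), Egln3 (-1.20 ± 0.33, adjusted p = 0.515) and Vegfa (-0.90 ± 0.28, adjusted p = 0.588). Without the second virgin array the median of oxygen sensing and hypoxia response was -0.34, and that of the enzymes -0.03, against -0.17 with all arrays. Of the 14 marker lists, 8 did not overlap in sum between these groups, with higher signals in dorsal cells for Langerhans cells, epidermal T cells, fibroblasts, and neutrophils and macrophages, and lower signals for hair follicle, mammary epithelium, spinous and granular keratinocytes, and dissociation stress. The median log2 fold changes were 0.94 for Langerhans and 1.05 for T cell markers, 0.51 for neutrophils and macrophages, -0.30 for spinous and granular keratinocytes, -1.51 for hair follicle, -2.32 for mammary epithelium and -0.61 for dissociation stress. The fibroblast list again differed in sign between its sum and its genes, of which 1 of 3 was higher (median -0.38). Endothelium and pericyte markers overlapped in sum (median -0.66). The part of these lists in the members' values was not tested.

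The members' other probe sets were read as well. For 16 members 30 further probe sets were detected. The sign of their log2 fold change was that of the main probe set for 20 of 30 over virgin cells and for 25 of 30 over dorsal cells, and 0 of them passed the threshold.

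Other genes of the same pathways, 79 of which were tested, gave no call in any comparison, with 12, 4 and 7 at an unadjusted p under 0.05 for 16 dpc ventral over virgin ventral, 16 dpc ventral over 16 dpc dorsal and 16 dpc dorsal over virgin ventral cells (15.2%, 5.06% and 8.86% of the 79, against 11.6%, 5.09% and 7.27% of all genes). The 79 genes had a median log2 fold change of 0.08, 0.04 and 0.06 in the same order, and the 27 members one of -0.02, 0.21 and -0.26. Of the 24 other hypoxia-induced genes, 11 had a higher mean in 16 dpc ventral than in virgin cells (median log2 fold change -0.01) and 14 had a higher mean than in dorsal cells (median 0.08). The smallest p over virgin cells were those of Pdk4, Pcx and Cited2. Pdk4, a pyruvate dehydrogenase kinase that rises on fasting, averaged 64.6 ± 30.1 in 16 dpc ventral and 394 ± 237 in virgin ventral cells (SD, n = 2 each), a log2 fold change of -2.55 ± 0.55 (SE, adjusted p = 0.148, limma). Pcx, which turns pyruvate into oxaloacetate, averaged 1001 ± 184 in 16 dpc ventral and 574 ± 84.0 in virgin ventral cells (0.80 ± 0.20, adjusted p = 0.229). Cited2, which competes with HIF-1α for a coactivator, averaged 1901 ± 268 in 16 dpc ventral and 3738 ± 431 in virgin ventral cells (-0.98 ± 0.26, adjusted p = 0.232).

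Over dorsal cells the smallest p belonged to Igfbp3, Fam162a and Errfi1. Igfbp3, a secreted binder of insulin-like growth factors, averaged 15181 ± 1245 in 16 dpc ventral and 9892 ± 1025 in 16 dpc dorsal cells (log2 fold change 0.62 ± 0.16, adjusted p = 0.505, limma). Fam162a, a mitochondrial protein induced by hypoxia, averaged 12076 ± 885 in 16 dpc ventral and 7677 ± 471 in 16 dpc dorsal cells (0.65 ± 0.18, adjusted p = 0.560). Errfi1, a feedback inhibitor of the EGF receptor, ran lower, at 1893 ± 14.6 in 16 dpc ventral and 2496 ± 62.5 in 16 dpc dorsal cells (-0.40 ± 0.15, adjusted p = 0.835).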

How the data were processed

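RNA of sorted α6 integrin-positive cells was hybridised by the authors to Affymetrix 3′ arrays. Per the submitters' processing notes Affymetrix Expression Console version 1 was used, and the deposited signal intensity is linear and scaled by the authors to a similar trimmed mean on each array (494.9 to 496.5), so a change in total RNA per cell cannot show. The genome build was not given in the sources used here.

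A floor of 1 was put under the signals before log2. Each gene was read from its probe set of highest mean log2 signal, and the 10993 genes that had 2 present calls in 1 group or more were tested. The lowest signals called present were 6.34 to 11.3, and 2 arrays per group limit the precision. Control probe sets were left out. Differences were tested on all 6 arrays with limma 3.58.1 (lmFit, eBayes with trend; 3 residual degrees of freedom) in R 4.3.3, two-sided, and p-values of all 10993 genes were adjusted together (Benjamini-Hochberg, threshold 0.05). The 2-fold threshold of the paper was counted too. The script was tested on simulated data.

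The members and lists were chosen with earlier results of these data known. All 32 members are named. Array values are given for the 6 members of smallest p in each comparison of 16 dpc ventral cells, those not detected in every group, and Gapdh, Hif1a, Slc2a1 and Vegfa. Of 79 other genes, the 3 of smallest p in each comparison of 16 dpc ventral cells are named.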

Additional observations from a re-analysis of the deposited data

How the results depend on the processing

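The replicate numbers were not taken as pairs. Deviations of same-numbered arrays correlated at 0.45 between 16 dpc ventral and 16 dpc dorsal cells, but at 0.01 and 0.03 between each of these and virgin ventral cells, and no label gives a number a meaning beyond the array. The file headers do give arrays of one number the same prefix in all 3 groups, and its meaning was not stated. With the replicate number as a block, 86, 16 and 11 genes passed for 16 dpc ventral over virgin ventral, 16 dpc ventral over 16 dpc dorsal and 16 dpc dorsal over virgin ventral cells, against 22, 9 and 0 without it, and 1 member passed, Aldoc in the first comparison (log2 fold change -1.24, adjusted p = 0.0406). The block changed no other call of a member.

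Aldoc was also the 1 member past the threshold, again over virgin cells, without the 16 dpc arrays of replicate 2 (-1.23, adjusted p = 0.0224, limma), which had the highest actin ratios, and without 16 dpc dorsal replicate 1 (adjusted p = 0.0496), and in the other alternatives 0 members passed in any comparison. The genes past the threshold in the 3 comparisons, in the order above, were 115, 24 and 62 without the 16 dpc arrays of replicate 2, 46, 0 and 12 with only the groups compared, 5, 0 and 0 with all probe sets of a gene averaged, 0, 1 and 0 without the trend, and 0, 0 and 0 with a floor of 32. In the third comparison they were 5 for genes present on all 6 arrays, 1 without shared probe sets and 7 with quantile normalization. Leaving out 1 array, they ran from 1 (without virgin ventral replicate 2) to 59 (without 16 dpc dorsal replicate 1), from 0 to 7 and from 0 to 33, and members past the threshold from 0 to 1 in the first comparison. The cause was not tested.

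With 1 array left out, the median log2 fold change over virgin cells ran from -0.12 to 0.19 for glycolytic enzymes and from -0.40 to 0.11 for transport and flux regulators, the ends being without virgin ventral replicate 1 and without replicate 2. For 16 dpc dorsal over virgin ventral cells it ran from -0.24 to -0.031 for enzymes, from -0.71 to -0.073 for regulators and from -0.81 to -0.34 for oxygen sensing and hypoxia targets. The medians of 16 dpc ventral over 16 dpc dorsal cells stayed above 0 in each class (0.12 to 0.30). When probe sets of a gene were averaged, the median of oxygen sensing and hypoxia targets over virgin cells was -0.36, against -0.14.

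The member values below changed sign, among them some that were not near 0 in the fit of all arrays (over virgin cells Hif1a at 0.42 and Pkm at -0.27, over dorsal cells Pfkfb3 at 0.46). Over virgin cells, without the 16 dpc arrays of replicate 2, Hk1 stood at -0.18, Pfkm at -0.016, Aldoa at -0.030, Ldhb at 0.25 and Egln3 at 0.095. When probe sets were averaged, Hk1 stood at -0.15, Aldoa at -0.039, Pfkfb3 at -0.58, Hif1a at -0.052 and P4ha1 at -0.031, and with quantile normalization Hk1 at -0.0097, Aldoa at -0.013 and Slc2a1 at -0.031. Over dorsal cells, without the 16 dpc arrays of replicate 2, Pfkm stood at 0.14, Egln1 at 0.066, Ankrd37 at 0.012 and Car9 at -0.23, and under the probe set mean Pfkfb3 at -0.36, Hif1a at -0.33 and Egln1 at 0.14. Leaving out 1 array gave ranges across 0 over virgin cells for Hk1 (-0.18 to 0.21), Pfkm (-0.12 to 0.20), Aldoa (-0.043 to 0.098), Tpi1 (-0.17 to 0.14), Pkm (-0.74 to 0.19), Ldhb (-0.31 to 0.25), Slc2a1 (-0.19 to 0.22), Pdk1 (-0.59 to 0.21), Pfkfb3 (-0.21 to 0.34), Egln3 (-0.69 to 0.49), Vegfa (-0.36 to 0.15) and P4ha1 (-0.12 to 0.24), and over dorsal cells for Hk1 (-0.14 to 0.25), Pfkm (-0.38 to 0.20), Ldhb (-0.38 to 0.18), Pfkfb4 (-0.049 to 0.10), Egln1 (-0.098 to 0.047) and Car9 (-0.34 to 0.78). Of all 968 member values under the alternatives, 917 kept their direction and their side of the threshold. Car9 and Vegfa could not be fitted among genes present on all 6 arrays, nor Aldoa without shared probe sets. With the control probe sets kept, an alternative chosen after seeing the data, Gapdh stood at -0.12 over virgin and 0.24 over dorsal cells (adjusted p = 0.874 and 0.9999, limma).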

Other observations

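Neighbouring branches of glucose metabolism had 0 genes past the threshold in either comparison of 16 dpc ventral cells. The first list held 11 genes of pyruvate import and of pyruvate dehydrogenase with its kinases and phosphatases. Of these, 7 had a higher mean in 16 dpc ventral than in virgin ventral cells (median log2 fold change 0.20). At an unadjusted p under 0.05 there were 4 of the 11, against 11.6% of all genes, with Pdhx, Dld and Pdk3 higher and Pdk4 lower. Over 16 dpc dorsal cells 7 had a higher mean (median 0.14), and 0 had an unadjusted p under 0.05, against 5.09% of all genes. The list mixes the enzyme complex with kinases that inhibit it, so its median gives no direction of pyruvate use. Of 6 genes of the pentose phosphate pathway, which makes NADPH and ribose, 5 had a higher mean than in virgin cells (median 0.19) and 3 a higher mean than in dorsal cells (median 0.02). For 12 genes of gluconeogenesis and glycogen the medians were 0.11 and -0.02, for 14 other glycolytic isoenzymes, transporters and regulators 0.15 and 0.11 (10 and 9 higher), and for 14 HIF subunits and regulators 0.10 and 0.03 (9 and 8 higher).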
